A study of Mus musculus with 4 samples.

Results

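The 10 genes described here are Ifit1, Ifit2, Ifit3, Ifit3b, Mx1, Mx2, Rsad2, Cmpk2, Ifi44 and Xaf1, a set of interferon-induced antiviral effectors. They were picked by name from the 24497 mouse gene rows of an RNA-seq table, with their low values in Tet2 KO-labelled libraries already known. Their change between the groups is therefore given as a description, without a test. The study measured RNA from mouse leukaemic cells in 2 libraries labelled Tet2 KO and 2 labelled WT, to compare leukaemia made from Tet2-/- and wildtype blood stem cells. In every library the cells came from bone marrow stem cells transformed with NRAS and AE9a, a shortened AML1-ETO fusion protein. They had been cultured with SCF, IL-3 and IL-6 under G418 and puromycin, then grown in CD45.1+ C57 B6.SJL recipients. The recipients were 6 to 8 weeks old and had received 900 cGy of irradiation. Donor-type CD45.2 cells were enriched from the spleen, so the residual share of recipient cells depends on that enrichment. The labels state neither how Tet2 was deleted, how many transformations were made, nor from how many mice a group's RNA was taken.

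Type I interferon binds the receptor IFNAR, whose kinases JAK1 and TYK2 activate transcription factors of the STAT family. Together with IRF9 these form a complex that binds the interferon-stimulated response element (ISRE) in promoters. The IFIT proteins are built of tetratricopeptide repeats: IFIT1 binds RNA whose cap lacks a methyl group of the host type, and IFIT2 and IFIT3 are its partners in complexes. MX proteins are dynamin-like GTPases that block virus particles, and in most inbred laboratory mouse strains both Mx genes carry lesions that prevent a working protein. Rsad2 encodes viperin, a radical SAM enzyme that turns CTP into a chain-terminating nucleotide. Its genomic neighbour Cmpk2 encodes a nucleotide kinase that supplies such triphosphates. IFI44 is a GTPase-like protein and XAF1 an antagonist of the caspase inhibitor XIAP, both characterised mostly in human cells.

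The genes lie at 5 loci of the mm10 build, by the GENCODE annotation. Chromosome 19 holds Ifit2 (34550694 to 34576419), Ifit3 (34583531 to 34588731), Ifit3b (34607970 to 34613401) and Ifit1 (34640871 to 34650009), all on the plus strand. On chromosome 16, Mx1 (97447035 to 97462907, minus strand) and Mx2 (97535308 to 97560900, plus strand) start 72.4 kb apart. On chromosome 12, Rsad2 (26442746 to 26456452, minus strand) and Cmpk2 (26469204 to 26479837, plus strand) point away from each other, with starts 12.8 kb apart. Ifi44 lies on chromosome 3 (151730922 to 151749960, minus strand) and Xaf1 on chromosome 11 (72301629 to 72313733, plus strand). The annotation classes Mx2 as a polymorphic pseudogene and the other 9 as protein-coding.

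RefSeq promoter windows (GRCm38.p6, the assembly behind mm10), which run from 250 bases before to 50 after a start, were found for 8 of the 10 genes; Mx1 and Mx2 had none in the table used. The windows of Ifit1 (chr19:34640639-34640938, plus strand), Ifit3 (chr19:34583279-34583578, plus), Ifit3b (chr19:34607707-34608006, plus) and Rsad2 (chr12:26456403-26456702, minus) are shown because they match the ISRE core. That of Ifi44 (chr3:151749861-151750160, minus) is shown because this gene stood apart in its level. Capitals mark the ISRE core, GAAA, any 2 bases and GAAA again, searched on both strands with overlaps allowed. In these windows it reads TTTC, any 2 bases, TTTC.
Ifit1: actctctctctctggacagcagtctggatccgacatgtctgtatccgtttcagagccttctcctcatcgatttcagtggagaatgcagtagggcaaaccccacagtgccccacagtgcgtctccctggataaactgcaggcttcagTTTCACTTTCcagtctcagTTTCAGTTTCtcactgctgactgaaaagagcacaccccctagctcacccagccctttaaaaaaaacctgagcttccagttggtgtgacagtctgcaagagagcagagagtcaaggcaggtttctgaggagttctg
Ifit3: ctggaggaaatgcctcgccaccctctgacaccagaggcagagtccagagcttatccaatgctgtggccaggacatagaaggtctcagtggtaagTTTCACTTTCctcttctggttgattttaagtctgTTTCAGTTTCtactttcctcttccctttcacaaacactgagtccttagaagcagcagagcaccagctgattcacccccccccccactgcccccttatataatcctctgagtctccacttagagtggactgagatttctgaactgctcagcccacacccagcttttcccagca
Ifit3b: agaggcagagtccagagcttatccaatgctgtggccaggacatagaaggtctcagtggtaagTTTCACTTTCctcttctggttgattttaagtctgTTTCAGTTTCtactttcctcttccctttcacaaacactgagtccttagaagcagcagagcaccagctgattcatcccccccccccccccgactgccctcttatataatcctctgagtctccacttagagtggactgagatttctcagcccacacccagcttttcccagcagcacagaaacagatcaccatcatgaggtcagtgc
Rsad2: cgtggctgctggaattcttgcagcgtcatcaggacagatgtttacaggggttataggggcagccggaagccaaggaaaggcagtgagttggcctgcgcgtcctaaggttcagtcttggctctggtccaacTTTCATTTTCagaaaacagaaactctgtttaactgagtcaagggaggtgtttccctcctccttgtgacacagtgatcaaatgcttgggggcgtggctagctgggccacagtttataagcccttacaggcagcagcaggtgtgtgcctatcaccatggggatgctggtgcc
Ifi44: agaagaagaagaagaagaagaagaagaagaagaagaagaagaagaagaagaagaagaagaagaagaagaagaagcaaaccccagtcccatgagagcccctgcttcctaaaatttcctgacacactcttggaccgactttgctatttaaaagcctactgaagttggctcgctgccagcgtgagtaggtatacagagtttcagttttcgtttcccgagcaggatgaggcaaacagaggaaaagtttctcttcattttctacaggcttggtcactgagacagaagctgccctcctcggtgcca

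The matches differed in number and spacing between genes. Ifit1 has TTTCACTTTC starting 104 bases before its start and TTTCAGTTTC starting 85 bases before. The same pair of words stands in Ifit3 at 156 and 122 bases and in Ifit3b at 188 and 154 bases. These last windows are near copies, with 258 identical positions in an alignment of 274. Rsad2 has a single match, TTTCATTTTC, 120 bases before its start. The windows of Cmpk2, Ifit2 (with 2 windows), Ifi44 and Xaf1 hold no match to these letters, which says nothing about factor binding elsewhere. Thus 4 of 8 genes with a window matched, against 3.99% of the 27025 genes with a window in the whole table. With a longer motif, the core followed by C and any base, it was 3 of 8, against 0.944%. The GAS-like motif, a STAT dimer word of TTC, any 3 bases and GAA, was matched by 1 of the 8, Ifit2, against 9.55% of all genes. The windows of Ifit3 and Ifit3b each hold 1 CpG, the others 4 to 11, and the median was 7 over all windows and 20 over those of tested genes.

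Values are TPM, the authors' estimate of transcript abundance per length, scaled to a fixed sum in each library. Depth was estimated at 23.1 and 24.4 M reads (M for mega) in Tet2 KO-labelled libraries, against 21.1 and 19.1 M in WT. Between the WT libraries the differences hardly exceeded sampling noise, and they were counted as 1 sample, so WT values are a mean (n = 1) and Tet2 KO values a mean ± SD (n = 2). Several features moved with the labels. Tet2 itself was not lower: it stood at 63.7 and 68.1 TPM in Tet2 KO-labelled libraries, against 43.5 and 43.7 TPM in WT. A whole-gene value does not show a deleted exon, so all directions rest on the labels. The summed TPM of the ERCC spike-ins was 2.95% and 3.19% of the total in Tet2 KO-labelled libraries, against 4.66% and 4.62% in WT. Xist stood at 86.1 and 28.2 TPM, against 0.34 TPM in each WT library, and the Y-linked Eif2s3y at 29.8 and 90.4 TPM, against 107 TPM in each. The sex-linked genes Xist and Eif2s3y moved with the labels, so sex of the cells cannot be told apart from the label. The part of these features in the results was not tested.

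Together the 10 genes held 26.1 and 31.8 TPM in Tet2 KO-labelled libraries, against 4295 and 4331 TPM in WT, a ratio of 149 between the means. In 9 genes every library labelled Tet2 KO lay far below every WT library, and the lowest ratio was 53.5. This contrast chose the genes, and the share of all genes without overlap was not counted, so nothing is read from that separation. Ifi44 was the exception in level. Since these are bulk samples, fewer cells of a type and less RNA per cell cannot be told apart. In the fit over all genes, 9 of the 10 passed the filter on low values. Ifit3b, Mx2 and Xaf1 did so through the WT libraries alone or with 1 other library. All 9 were among the called-lower genes, beside 26.7% of the 11919 genes tested; since this contrast chose the genes, nothing is read from that count.

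**Figure D1:**
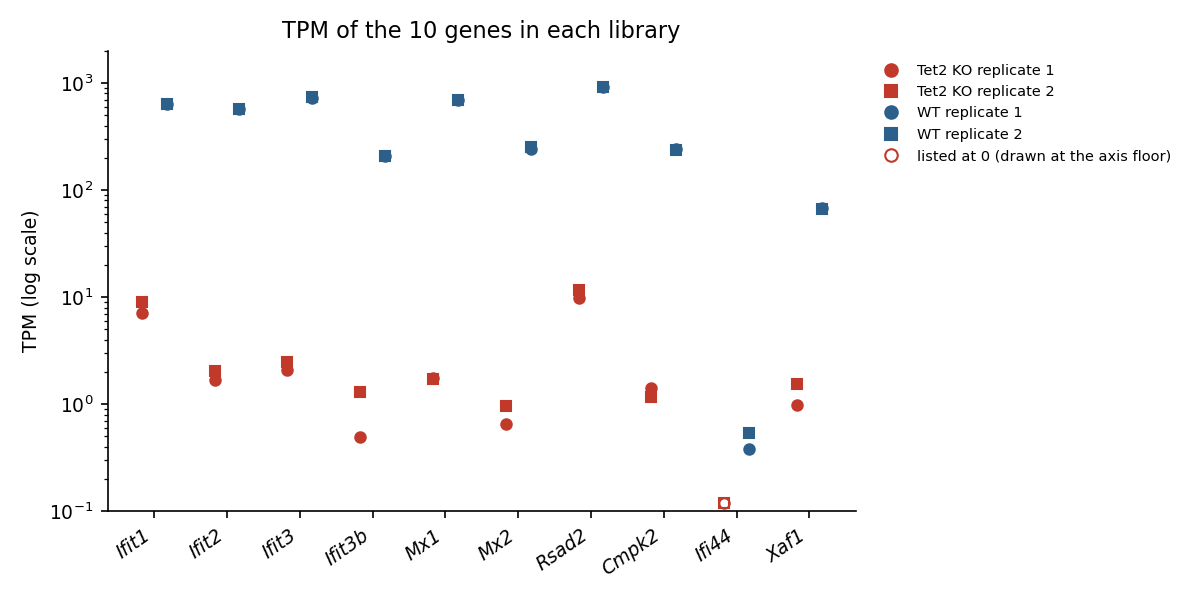
TPM on a log axis (vertical) for each of the 10 genes (horizontal), with Tet2 KO-labelled libraries in red at the left of each pair and WT in blue at the right; circles are replicate 1 and squares replicate 2, and open symbols near the axis floor stand for 0. In 9 genes the red points lie at 0.49 to 11.7 TPM and the blue ones at 66.6 to 920 TPM; Ifi44 was listed at 0 in both libraries labelled Tet2 KO and at 0.38 and 0.54 TPM in WT.

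Among the IFIT genes, Ifit1, whose product recognises incompletely capped RNA, kept the highest residual level. It stood at 7.17 and 8.93 TPM in Tet2 KO-labelled libraries, against 633 and 640 TPM in WT, a 79.1-fold lower mean. Its RNA-binding relative Ifit2 stood at 1.68 and 2.03 TPM, against 568 and 574 TPM in WT, and was 308-fold lower. Ifit1 and Ifit2 thus lay closer together in WT than in Tet2 KO-labelled libraries. Ifit3, which encodes a scaffold of the complex, stood at 2.10 and 2.46 TPM, against 731 and 735 TPM in WT, a 321-fold lower mean. Ifit3b stood at 0.49 and 1.29 TPM, against 208 and 209 TPM in WT. It was the least even gene of the family, 2.63-fold higher in replicate 2 than in replicate 1 of the Tet2 KO label, at about 10.8 and 30.3 estimated reads. Of the stretches of 75 bases in the Ifit3 transcript 41.1% also occur in Ifit3b, and 35.7% the other way round, so the split of reads between this pair is uncertain. Ifit1, Ifit2 and Ifit3 share no such stretch with each other.

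The MX genes had ratios near those of Ifit2 and Ifit3. Mx1 stood at 1.76 and 1.71 TPM in Tet2 KO-labelled libraries, against 692 and 697 TPM in WT. Its ratio of 400 was the largest of the 9, and it held in each library (395 and 406). Mx2 stood at 0.66 and 0.96 TPM, against 240 and 251 TPM in WT, and was 303-fold lower. The transcripts of Mx1 and Mx2 share 1.71% of the stretches of 75 bases counted from Mx1. These are RNA levels and do not bear on whether a working MX protein is made.

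Viperin and its kinase neighbour differed in level and in ratio. Rsad2 was the most abundant of the 10 in every library, at 9.89 and 11.7 TPM in those labelled Tet2 KO, against 913 and 920 TPM in WT, an 84.9-fold lower mean. Cmpk2 stood at 1.41 and 1.18 TPM, against 242 and 238 TPM in WT, and was 185-fold lower. In WT the RNA of Cmpk2 was thus at about the level of Mx2, with overlapping values, while that of Rsad2 exceeded every other gene of the set. Cmpk2 and Mx1 were the only genes among the 9 with the lower value in replicate 2 of the Tet2 KO label; the other 7 were higher there, beside 65.2% of all genes tested.

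Xaf1 and Ifi44 stood apart. Xaf1, which encodes the XIAP antagonist, stood at 0.98 and 1.53 TPM in Tet2 KO-labelled libraries, against 67.7 and 66.6 TPM in WT, and was 53.5-fold lower, the lowest ratio of the 9. Its WT level was the lowest of the 9 as well, although its residual level was like that of Cmpk2, with overlapping values. Ifi44 was listed at 0 in both libraries labelled Tet2 KO, against 0.38 and 0.54 TPM in WT, about 11.3 and 14.5 estimated reads. It did not pass the filter, and no ratio is given against a group at 0. Its paralog and neighbour Ifi44l was listed at 0 in all 4 libraries. So Ifi44 was near the limit of detection in the same WT libraries that held the other 9 genes at 66.6 TPM or more.

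The order of levels differed between the groups. In Tet2 KO-labelled libraries the means ran Rsad2, Ifit1, Ifit3, Ifit2, Mx1, Cmpk2, Xaf1, Ifit3b, Mx2 and Ifi44. Of neighbours in this order, Ifit2 and Mx1 overlapped, as did Cmpk2 and Xaf1, Xaf1 and Ifit3b, and Ifit3b and Mx2. In WT the order was Rsad2, Ifit3, Mx1, Ifit1, Ifit2, Mx2, Cmpk2, Ifit3b, Xaf1 and Ifi44, and of neighbours only Mx2 and Cmpk2 overlapped. Rsad2 and Ifit1 took 37.3% and 27.8% of the summed TPM of the set in the mean of Tet2 KO-labelled libraries, against 21.3% and 14.8% in WT. Mx1 took 5.99%, against 16.1% in WT, and Ifit3 7.87%, against 17.0%. The share of Rsad2 differed little between libraries of a group, at 37.8% and 36.8% under the Tet2 KO label, against 21.3% in each WT library. Some lower genes varied more under the Tet2 KO label. Mx1 took 6.73% and 5.38%, Cmpk2 5.39% and 3.71%, and Ifit3b 1.87% and 4.06%. Over the 9 detected genes Pearson's r between the log2(TPM + 1) means of the groups was 0.63, a description over genes that share the same libraries.

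**Figure D2:**
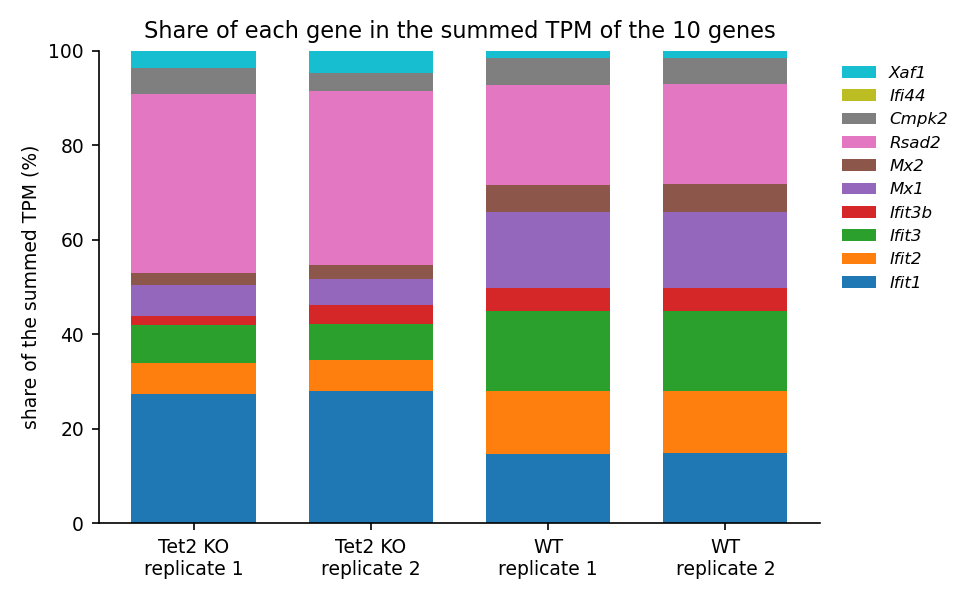
Stacked bars of each gene's share (%, vertical) of the summed TPM of the 10 genes in each library (horizontal), with Tet2 KO-labelled libraries at the left. Rsad2 and Ifit1 make up 37.8% and 27.4% in Tet2 KO replicate 1 and 36.8% and 28.1% in replicate 2, against 21.3% and 14.7% in WT replicate 1.

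On the log2(TPM + 1) scale, which understates the change of low genes, the differences ran from -7.99 ± 0.25 for Mx1 to -4.93 ± 0.31 for Xaf1 (± standard error from limma). Ifit3 had -7.81 ± 0.24, Ifit2 -7.65 ± 0.26, Mx2 -7.10 ± 0.30, Ifit3b -6.83 ± 0.33, Cmpk2 -6.72 ± 0.29, Rsad2 -6.29 ± 0.19 and Ifit1 -6.15 ± 0.21. Counted from the most negative difference of the 11919 genes, Cmpk2 was rank 12, Rsad2 rank 19, Ifit1 rank 22 and Xaf1 rank 56. With a pseudocount of 0.1 in place of 1 the same genes were at ranks 21, 42, 49 and 80, and Mx1 remained at rank 2. Their median was -6.83, beside -0.12 over all genes tested.

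By Euclidean distance between centred log2(TPM + 1) profiles over the 4 libraries, the non-members nearest to the mean profile of the 9 genes were Cx3cl1, Ccr7, Ccl22, Phf11b, Gbp5, Ifit1bl1, Cxcl10 and Ifi47. Cx3cl1, a membrane-bound chemokine, was nearest at a distance of 0.225, closer than any of the 9 genes themselves, whose distances ran from 0.272 for Mx2 to 1.90 for Xaf1. It stood at 0.66 and 1.36 TPM in Tet2 KO-labelled libraries, against 210 and 214 TPM in WT. Ifi47, an immunity-related GTPase, was the last of the 8 at 0.558, with 3.68 and 5.14 TPM, against 417 TPM in each WT library. The distance rests on 4 libraries in 2 groups.

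Genes next to these loci were examined next, as position was not used to choose the set. Of 34 other genes whose start lies within 250 kb, 14 passed the filter. Limma called 8 of them lower and 3 higher at an adjusted p under 0.05, that is 57.1% and 21.4%, beside 26.7% lower and 22.1% higher over all genes tested. Of the 8, Ifit1bl1, Ch25h, Tmprss2 and Fbxo39 passed the filter through the WT libraries alone, so their direction follows from it. Among the 7 neighbours with at least 1 TPM in each library, 4 were lower and 1 higher, beside 25.1% and 19.8% of all such genes. Within 100 kb the counts were 6 lower and 2 higher of 10. At the Ifit locus, Ifit1bl1, an IFIT family gene 6.0 kb from Ifit3b, stood at 0.89 and 0.81 TPM in Tet2 KO-labelled libraries, against 151 and 150 TPM in WT. The log2 difference was -6.36 ± 0.30 (limma adjusted p = 1.06e-10). Lipa, which encodes lysosomal acid lipase, lies 23.2 kb from Ifit2 and stood at 29.5 and 37.2 TPM, against 280 and 290 TPM in WT (adjusted p = 6.64e-09). Ch25h, named after its values were seen, makes an antiviral oxysterol and lies 75.5 kb from Ifit2; it stood at 0.20 and 0.06 TPM, against 54.5 and 54.8 TPM (adjusted p = 5.53e-10). The groups did not overlap in these genes, but the share of all genes without overlap was not counted, so nothing is read from this.

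Ifit1bl2 went the other way from its divergent neighbour. It is on the minus strand, and its start lies 128 bases from that of Ifit1, within the Ifit1 window printed above, without overlap of the genes. Its RNA stood at 16.04 and 8.03 TPM in Tet2 KO-labelled libraries, against 1.00 and 0.82 TPM in WT, a rise of 2.70 ± 0.39 (limma adjusted p = 0.000160). The transcripts of Ifit1bl2 share 4.07% of their stretches of 75 bases with Ifit1. The kit was stranded per the labels, but no source used here says whether reads were counted by strand, so reads of this pair near their starts are uncertain. The nearest tested gene on the far side of Ifit1, Pank1, stood at 0.51 and 0.46 TPM, against 1.03 TPM in each WT library, and was not called (adjusted p = 0.126).

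Neighbours at the other loci moved in both directions. Rnf144a, a ubiquitin ligase gene 41.2 kb from Rsad2, was the only tested neighbour there and rose to 11.04 and 12.01 TPM, against 1.27 and 0.84 TPM in WT (limma adjusted p = 3.56e-06). Next to Mx2, Tmprss2, a surface serine protease used by respiratory viruses, stood at 0 and 0.05 TPM in Tet2 KO-labelled libraries, against 5.87 and 6.12 TPM in WT (adjusted p = 1.88e-07). Around Xaf1, 4 of 7 tested genes were called lower and 1 higher, beside 26.7% and 22.1% of all genes tested. Of the lower calls, that of Txndc17 was lost with ERCC scaling, and that of Spns3 with ERCC scaling and quantile normalization, while Spns3 and Fbxo39 did not pass a filter of 5 TPM. The nearest, Fbxo39, fell to 0.05 and 0 TPM, against 2.64 and 2.72 TPM in WT (adjusted p = 8.19e-06), while Med31, a Mediator subunit gene on the other side, had 10.3 and 12.2 TPM, against 10.8 and 10.99 TPM (adjusted p = 0.918). The 2 genes next to Ifi44 were listed at 0 in every library.

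**Figure D3:**
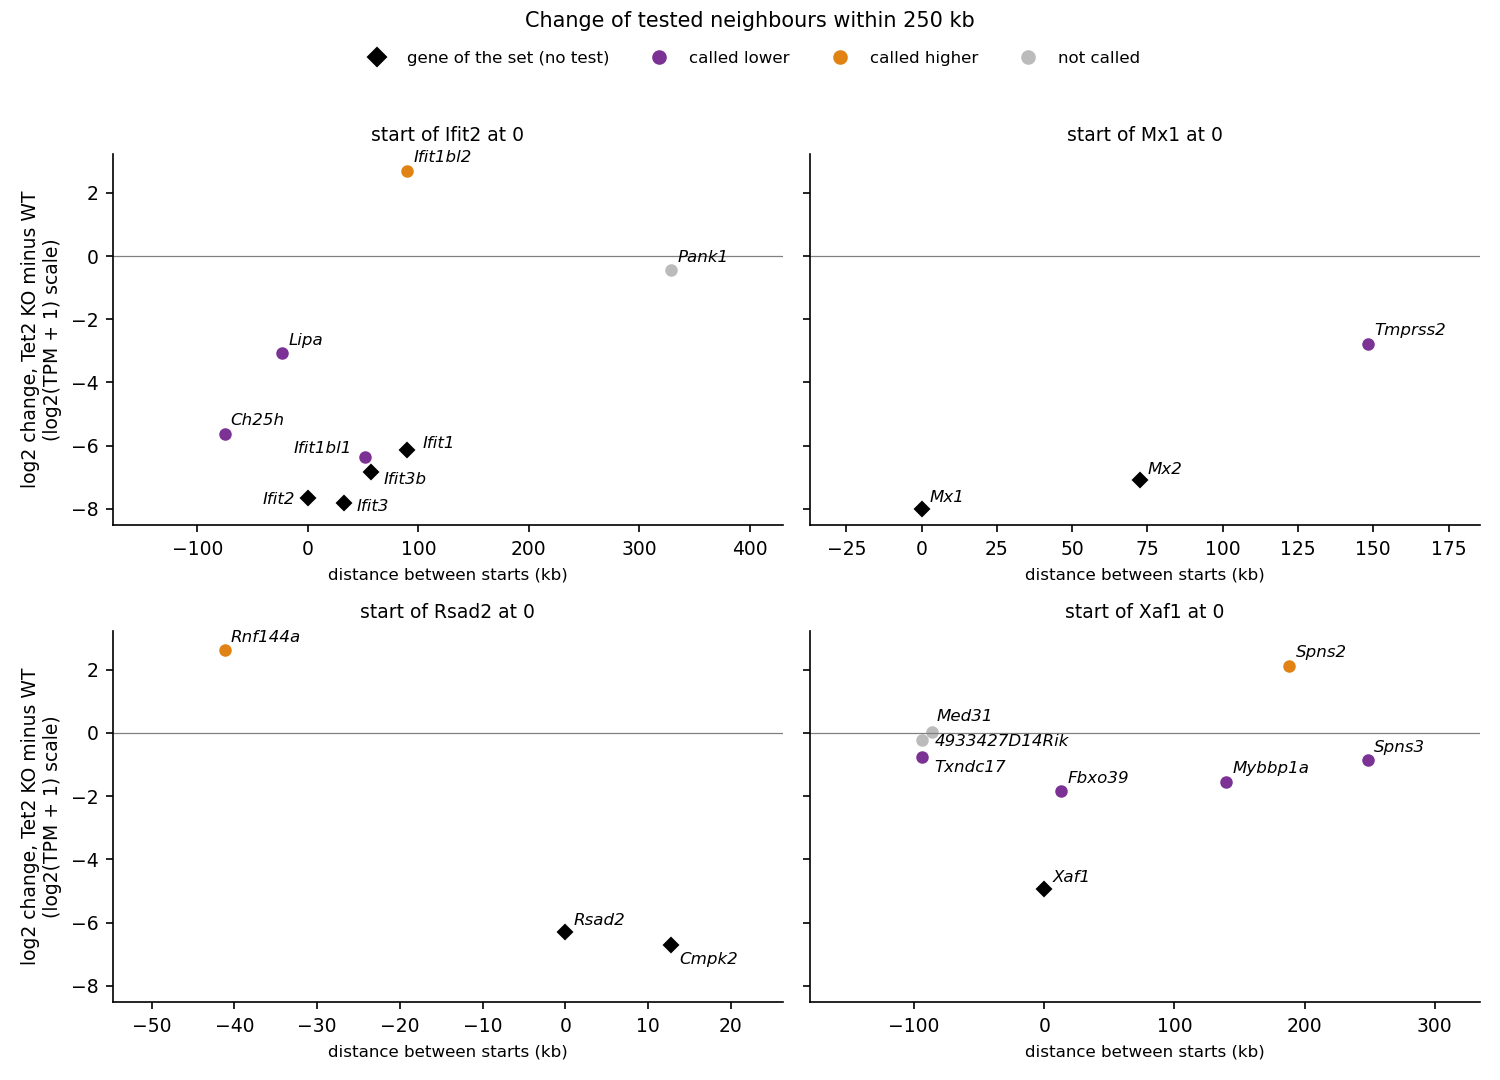
Log2 change on the log2(TPM + 1) scale, Tet2 KO minus WT (vertical), against distance between starts in kb (horizontal) at the loci of Ifit2, Mx1, Rsad2 and Xaf1; diamonds are genes of the set, without a test, and circles are tested neighbours within 250 kb. Ifit1bl2 lies at 2.70 directly above Ifit1 at -6.15, and Rnf144a at 2.61 beside Rsad2 at -6.29.

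Of the ligands upstream of these effectors, interferon beta was detected. Of 20 interferon genes listed, only Ifnb1 passed the filter. It stood at 0.25 and 0.23 TPM in Tet2 KO-labelled libraries, against 22.6 and 24.0 TPM in WT, a log2 difference of -4.29 ± 0.29 (limma adjusted p = 6.11e-09). Ifnb1 passed the filter through the WT libraries alone, so its direction follows from it; over the alternatives the adjusted p reached at most 0.0385. The other interferon genes were at 0.65 TPM or less in every library, and 12 were listed at 0 throughout. Of 9 receptor and kinase genes 4 fell and 1 rose, beside 26.7% called lower and 22.1% called higher over all genes tested. Both chains of the type I receptor fell: Ifnar1 had 72.9 and 67.2 TPM, against 175 and 182 TPM in WT, and Ifnar2 88.0 and 70.1 TPM, against 180 and 183 TPM. The Ifnar2 call was lost with ERCC scaling, as was that of the kinase gene Tyk2, which had 29.6 and 31.7 TPM, against 60.3 and 61.1 TPM. Ifngr2, a chain of the interferon-gamma receptor, had 117 and 92.3 TPM, against 172 and 170 TPM; its call was lost with ERCC scaling, with quantile normalization and without trend and robust estimation. Ifnlr1, the interferon-lambda receptor chain, rose to 7.61 and 3.70 TPM, against 0.18 and 0.22 TPM. It passed the filter through the Tet2 KO-labelled libraries alone, so its direction follows from it, and it did not pass a filter of 5 TPM.

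Most sensors and transcription factors were called lower. Of 14 sensors and adaptors 9 fell and 2 rose, beside 26.7% called lower and 22.1% called higher over all genes tested. Among those that fell, Tlr3 passed the filter through the WT libraries alone, so its direction follows from it. The RNA helicase genes Dhx58 (10.3 and 10.7 TPM, against 165 and 164 TPM in WT), Ddx58 (12.5 and 11.5 TPM, against 133 and 135 TPM) and Ifih1 (5.64 and 4.62 TPM, against 58.3 and 57.6 TPM) fell, as did the endosomal DNA receptor gene Tlr9 (26.2 and 27.2 TPM, against 197 and 201 TPM). The kinase gene Ikbke, which acts below the sensors, rose to 143 and 156 TPM, against 82.7 and 85.4 TPM. Of 9 transcription factors 8 fell, beside the same 26.7%. Stat2 had 20.8 and 24.3 TPM, against 294 and 296 TPM in WT, and Irf9, with which STAT2 binds the ISRE, had 25.2 and 30.8 TPM, against 175 and 182 TPM. Irf7, the inducible amplifier of interferon production, had 13.4 and 19.03 TPM, against 425 and 419 TPM. The exception was Irf3, at 42.8 and 47.4 TPM, against 44.2 and 44.8 TPM, with a log2 difference of 0.017 ± 0.19 (limma adjusted p = 0.949).

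Among 6 feedback inhibitors 3 fell, beside 26.7% called lower over all genes tested. Usp18, which removes ISG15 and restrains the receptor, had 2.78 and 3.48 TPM, against 304 and 305 TPM in WT, a log2 difference of -6.21 ± 0.26, beside -6.15 for Ifit1 and -6.29 for Rsad2. Socs3 had 31.6 and 40.3 TPM, against 313 TPM in each WT library, and Socs1 had 7.49 and 9.28 TPM, against 77.2 and 63.9 TPM. Pias1, a SUMO ligase, had 48.6 and 47.0 TPM, against 47.1 and 49.3 TPM, and was not called, nor was the phosphatase gene Ptpn6 at 397 and 298 TPM, against 258 and 255 TPM. Of 60 other effectors tested 56 fell and 2 rose, beside 26.7% and 22.1% over all genes tested. Among those that fell, Iigp1, Ifit1bl1 and Phf11d passed the filter through the WT libraries alone, so their direction follows from it. Log2 differences were -8.19 ± 0.21 for the DNA-sensor family gene Ifi205, -5.40 ± 0.19 for the GTPase gene Irgm1, -5.31 ± 0.19 for Oasl1, a regulator of Irf7 translation, and -5.11 ± 0.19 for the ADP-ribosyltransferase gene Parp14. Ifit1bl2, described above, was among those that rose.

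Over all roles, 81 of the 99 pathway genes tested were called lower and 5 higher by limma, beside 26.7% and 22.1% over all genes, and their median difference was -2.95, beside -0.12. Among the 91 with at least 1 TPM in each library the counts were 75 and 3, beside 25.1% and 19.8% of all such genes. The list was drawn from textbook knowledge with earlier results of these data known. With ERCC scaling 72 were lower and 12 higher, while the median over all genes moved to 0.43. Without the filter on low values 8 of 106 were lower and none higher (limma; 78 and 1 at an unadjusted p under 0.05).

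**Figure D4:**
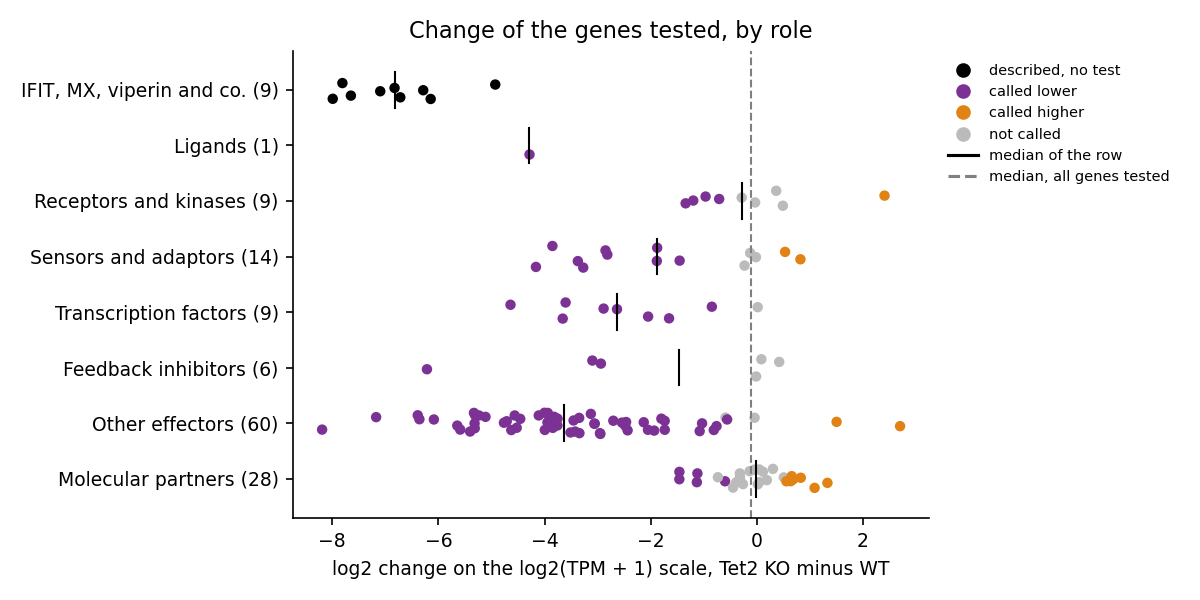
Log2 change on the log2(TPM + 1) scale, Tet2 KO minus WT (horizontal), for each gene tested, by role (rows, number of genes in brackets); purple was called lower, orange called higher and grey not called, black points are 9 genes of the set without a test, vertical bars are row medians and the dashed line is the median of all genes tested. The 9 genes lie between -7.99 and -4.93, while the molecular partners centre on -0.016.

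Host enzymes and binding partners of these proteins were called about as often as other genes. Of 28 partner genes tested 5 were called lower and 7 higher, or 17.9% and 25%, near the 26.7% and 22.1% over all genes. Xiap, which XAF1 binds, had 79.8 and 72.6 TPM in Tet2 KO-labelled libraries, against 74.4 and 73.0 TPM in WT (limma adjusted p = 0.860). Its relatives Birc3 (84.1 and 62.5 TPM, against 201 TPM in each WT library) and Birc2 (27.0 and 27.9 TPM, against 59.6 and 63.0 TPM) fell, and Birc5, which encodes the mitotic protein survivin, rose to 60.5 and 82.4 TPM, against 31.7 and 33.7 TPM. Fkbp5, a partner of human IFI44, rose to 136 and 135 TPM, against 75.4 and 76.3 TPM. Cmpk1, the cytosolic kinase related in function to Cmpk2, had 141 and 163 TPM, against 148 and 146 TPM (adjusted p = 0.876), and Ctps, which makes the CTP that viperin uses, fell to 5.57 and 8.95 TPM, against 17.1 and 16.04 TPM.

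Of 10 iron-sulphur and radical SAM genes 1 fell and 2 rose, beside 26.7% called lower and 22.1% called higher over all genes tested. Viperin needs an iron-sulphur cluster: Fam96b, a cluster assembly factor, fell to 27.6 and 37.2 TPM, against 85.9 and 93.6 TPM in WT, and the scaffold gene Iscu rose to 124 and 96.2 TPM, against 73.6 and 61.3 TPM, a call lost with quantile normalization and without trend and robust estimation. Mocs1, another radical SAM enzyme, rose to 78.0 and 63.0 TPM, against 27.0 and 27.6 TPM. The other 7 tested genes of this group were not called. Among 4 cap methylation genes tested 1 fell, 1 rose and 2 were not called, beside the same 26.7% and 22.1%. Cmtr1, which adds the cap methyl group that hides host RNA from IFIT1, had 36.6 and 36.9 TPM, against 53.8 and 58.5 TPM (adjusted p = 0.0177, up to 0.945 over the alternatives, lost with ERCC scaling and without trend and robust estimation). Fam103a1, also of the cap methylation group, rose to 128 and 116 TPM, against 79.4 and 76.1 TPM in WT. This call was lost without trend and robust estimation. The Ctps call was lost with ERCC scaling. Xiap, Cmpk1, Cmtr1 and Fam103a1 were named after their values were seen.

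Promoter words were then compared with the calls, as counts without a test. Of 80 tested pathway genes with a window, 38.8% matched the ISRE core. Among called-lower genes outside the set and the pathway list it was 4.97% of 2335, beside 3.20% of 2003 called-higher genes, 3.06% of 4706 genes not called and 3.99% of all 27025. With the longer motif the shares were 1.76% of the called-lower genes outside the set and the list, 0.749% of the called-higher and 0.489% of those not called.

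**Figure D5:**
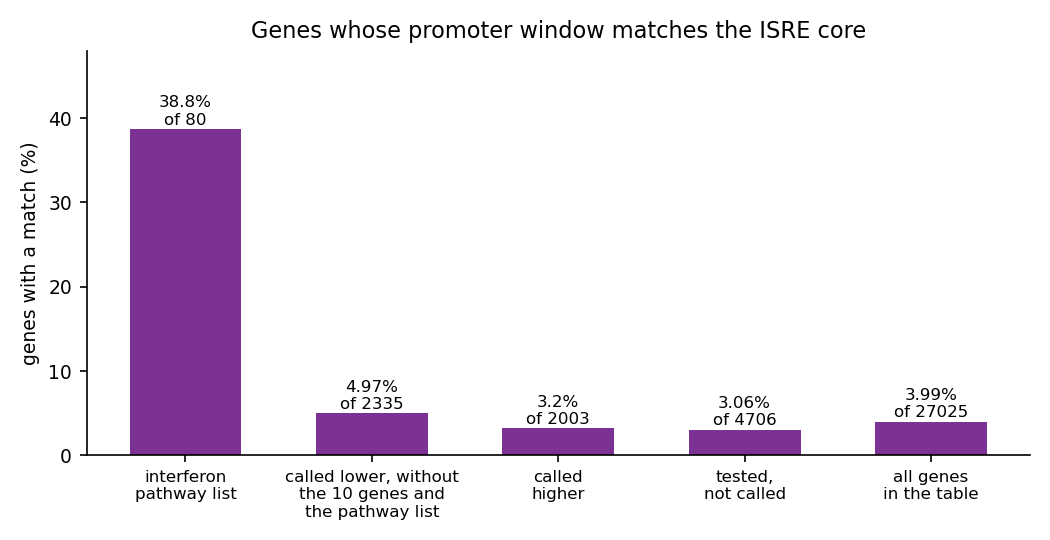
Share of genes (%, vertical) with the ISRE core on either strand in a RefSeq promoter window, by gene group (horizontal), with the number of genes over each bar. The interferon pathway list stands at 38.8% of 80 genes and the other groups between 3.06% and 4.97%.

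Markers of other cell types moved beside the set. The neutrophil markers were called higher in 9 of 9, beside 22.1% of all genes tested. Ly6g passed the filter through the Tet2 KO-labelled libraries alone, so its direction follows from it. Summed levels of these markers were 96339 and 75940 TPM in Tet2 KO-labelled libraries, against 1535 and 1568 TPM in WT, and S100a9 was the highest. The 8 markers of plasmacytoid dendritic cells, which make much type I interferon, summed to 6.12 and 8.10 TPM, against 102 TPM in each WT library. The 3 tested were called lower, beside 26.7% of all genes. Of these, Siglech passed the filter through the WT libraries alone, so its direction follows from it, and Cox6a2 did so with 1 other library. In WT nearly all of the sum was Tcf4, at 3.22 and 5.27 TPM, against 96.0 and 96.2 TPM; the defining marker Siglech stood at 0 and 0.04 TPM, against 1.48 and 1.38 TPM. The 8 red pulp macrophage markers summed to 1175 and 1469 TPM, against 3101 and 3122 TPM, mostly Hmox1. Of 6 tested 5 were called lower, beside 26.7% of all genes. Among them the complement gene C1qb had 42.7 and 46.5 TPM, against 367 and 379.9 TPM. The defining Spic, at 5.25 and 4.02 TPM, against 2.22 and 2.63 TPM, was not called. Below the filter were Vcam1, at 0.66 and 0.75 TPM, against 0.21 and 0.16 TPM, and Cd5l, at 0.09 and 0.13 TPM, against 0.15 and 0.17 TPM.

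The 6 conventional dendritic cell markers summed to 61.9 and 41.8 TPM, against 163 and 162 TPM, and Itgax was the highest. The 4 tested, Itgax, Flt3, Zbtb46 and Xcr1, were called lower, beside 26.7% of all genes tested. Flt3 stood at 2.63 and 2.45 TPM, against 71.04 and 69.3 TPM. The defining Clec9a was below the filter at 0.53 and 0.13 TPM, against 0.13 and 0.31 TPM. B cell sums were 6.21 and 4.05 TPM, against 9.31 and 8.40 TPM. Cd79a was the highest under the Tet2 KO label and called higher, and Cd79b was the highest in WT and called lower. Cd79a passed the filter through the Tet2 KO-labelled libraries alone, so its direction follows from it. T cell sums were 2.37 and 5.33 TPM, against 3.47 and 3.16 TPM, with neither tested gene called. NK cell sums were at most 1.19 TPM in any library, with Ncr1 at 0 in all. Erythroid sums were 7.5 and 47.5 TPM, against 3.90 and 2.37 TPM; Hba-a1 made up 33.9 TPM of Tet2 KO replicate 2 and was at 0 in replicate 1. The 6 markers of leukaemic myeloid cells summed to 1996 and 1600 TPM, against 657 and 660 TPM. Of these 4 were called higher, beside 22.1% of all genes tested. Kit, 1 of the 4, passed the filter through the Tet2 KO-labelled libraries alone, so its direction follows from it. Cd34, a progenitor marker, was called lower, at 14.7 and 15.8 TPM, against 60.6 and 60.7 TPM. Itgam was the highest under the Tet2 KO label and Ptprc in WT. The defining and further markers given here beside the highest of each list were named after their values were seen. The part of these cell types in the values of the set was not tested.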

How the data were processed

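The authors deposited TPM values for 4 mouse RNA-seq libraries, each summing to 1000000 over 24589 rows with 92 ERCC spike-ins, which were left out of all tests. Per the submitters' processing notes STAR and RSEM were used with mm10; versions and annotation are not given in the sources used here. Of 24497 mouse rows 23717 matched a GENCODE basic symbol, and 27 carry dates as names.

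Approximate depth came from low values of single-transcript genes of 600 to 2500 nt (length minus 200 nt), 63.0% to 66.8% of which lay within 0.2 of whole reads. Between libraries the variance was 5.76 times that of read sampling for Tet2 KO (robust, 2085 genes) and 1.12 for WT (1962 genes, 16 beyond 5 SD), so the WT libraries were averaged (n = 1). P-values rest on the spread between Tet2 KO-labelled libraries alone, with 1 residual degree of freedom per gene, which limma moderates by a trend over all genes. These libraries differed in Xist (86.1 and 28.2 TPM) and Eif2s3y (29.8 and 90.4 TPM). The labels do not say whether they come from separate mice or transformations.

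Limma 3.58.1 (R 4.3.3, trend, robust) was run on log2(TPM + 1) for 11919 genes with at least 1 TPM in at least 2 libraries; Benjamini-Hochberg values are two-sided over these genes, threshold 0.05. The fit was tested on simulated data. Genes and lists were chosen with earlier results of these data known. Named genes are the set, Tet2, up to 4 genes per role by smallest p with 1 in the other direction, nearest tested neighbours, up to 8 called partners, the 8 nearest profiles, and of each marker list the highest gene and those at 0; others were chosen after their values were seen. Some genes that this rule names are not reported here. Alternatives changed the pseudocount, filter, scaling, variance model, treatment of the WT libraries, replicate block and replicates used. Promoter sequences are RefSeq's (GRCm38.p6).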

Additional observations from a re-analysis of the deposited data

How the results depend on the processing

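All 108 values of the 9 detected genes over 12 alternatives stayed negative, from -8.56 to -4.48. Their median was -7.85 with a pseudocount of 0.1, -6.41 with ERCC scaling and -7.14 to -6.79 without 1 library; that of the pathway list was -3.08, -2.39 and -3.05 to -2.89. The cause of these shifts was not tested. Over all genes 295 were called lower and 123 higher without the filter on low values, and 1492 and 4942 with ERCC scaling, so that 76.8% of calls were higher, against 45.2%. Without 1 library the counts were 3192 to 5674 lower and 2651 to 4321 higher; the highest came without Tet2 KO replicate 2 (5674) and replicate 1 (4321), where both WT libraries entered as samples. Pathway genes called higher numbered 12 with ERCC scaling and 5 to 9 without 1 library, and 0 without the filter, where 8 were called lower. Without the filter limma called 1 neighbour lower and 0 higher (10 and 3 at an unadjusted p under 0.05) and 0 partners either way (5 and 5). With ERCC scaling partners were 3 lower and 14 higher, without trend and robust estimation 3 were higher, and without 1 library 5 to 12 were lower and 7 to 12 higher. Of 86 pathway calls 78 were lost without the filter, and 75 held in every other alternative.

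Groups share replicate numbers, but deviations of equally numbered libraries correlated at 0.013 over 8226 genes, so the numbers were not taken as pairs. With both WT libraries as samples and the replicate block 4461 genes were lower and 3495 higher, against 4517 and 3520 without the block. Partners called lower were 10 with and 10 without it, beside 5 with WT averaged, and pathway genes 82 and 82. The ISRE core count of 4 genes became 3 with the longer motif. Neighbours called lower were 6 with ERCC scaling. Few estimated reads lie behind Ifi44 (11.3 and 14.5 in WT) and Ifit3b (10.8 in Tet2 KO replicate 1).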
